A study of Homo sapiens with 15 samples.

Results

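The comparison set the 3 RNA-seq libraries labelled as ID2 overexpression in U87MG cells against the 3 labelled as ID4 overexpression. They were chosen by these labels alone, and they are 6 of the 15 libraries of the series. U87MG is an established line of malignant glioma-derived cells. The cells were grown in DMEM with 10% FBS, and each compared group received lentivirus for the ID gene on its label for 24 h. The other 9 libraries, 3 each, carried the labels GFP control, ID1 and ID3, and they enter here as reference levels and for the estimate of spread between libraries. The labels do not say that the 3 libraries of a group came from separate cultures or infections, so the p-values below measure only the spread between these libraries, which may be technical. Nor do they say which promoter drove the transgene, or whether the cells were clones or a pool.

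ID1 to ID4 are small helix-loop-helix proteins that lack a DNA-binding region. They pair with E proteins such as TCF3, TCF4 and TCF12 and keep them from binding E-box sequences in DNA, which holds back differentiation genes in many tissues. In glioma, ID proteins are known for their association with stem-like cells, and they are common targets of BMP signaling.

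Counts per gene came from the QuantSeq kit, which reads the 3′ ends of polyadenylated transcripts. Total counts were 13721726 to 14454067 in the ID2-labelled and 11089044 to 13216203 in the ID4-labelled libraries. A floor of 3 counts corresponded to 0.208 to 0.219 and 0.227 to 0.271 CPM from the total counts without TMM factors, a limit that covers counting error only. All other CPM values are counts scaled to a common library size with TMM factors. Of 25737 listed entries, 12740 had a mean of 10 or more counts over the 6 libraries and were tested with edgeR's quasi-likelihood test, where "called" means an adjusted p under 0.05 by the Benjamini-Hochberg method. Differences are log2 fold changes of ID2-labelled over ID4-labelled libraries, so a positive value is higher with the ID2 label. One library stood apart. Over the 9129 genes with a mean of 100 or more counts, the log2 difference between ID2-labelled libraries 1 and 2 had an SD of 0.143, against 0.262 and 0.265 for each of them with library 3, and 0.143 to 0.178 within the ID4-labelled group. The main results are therefore given also without ID2-labelled library 3.

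The ID genes themselves checked the labels. ID4, on chromosome 6 of GRCh37 from 19837601 to 19842428, had 7, 5 and 7 counts in the ID2-labelled and 2744, 2479 and 3110 counts in the ID4-labelled libraries, a mean level of 223 ± 12.2 CPM (SD, n = 3) with the ID4 label. In the GFP libraries it had 1, 2 and 0 counts, so the ID4 label fits the counts, and the log2 difference was -8.92 (standard error 0.17, adjusted p = 5.43e-20).

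ID2, on chromosome 2 from 8818975 to 8824591, had 599, 647 and 668 counts in the ID2-labelled, 454, 391 and 498 in the ID4-labelled and 1259, 1028 and 993 in the GFP libraries. The level was 45.5 ± 1.42 CPM with the ID2 label, 35.9 ± 1.56 with the ID4 label and 86.0 ± 2.06 with GFP (SD, n = 3 each). It was thus higher with the ID2 label than with the ID4 label by 0.34 (standard error 0.07, adjusted p = 0.00126), but every ID2-labelled library lay below every GFP library. With the ID3 label ID2 had 661, 684 and 609 counts (46.3 ± 2.09 CPM), so a level above the ID4 label was not particular to the ID2 label. The counts of ID2 do not bear out the label, and the libraries are called ID2-labelled throughout. Whether transcripts of the lentiviral construct end in the gene's own 3′ sequence, which this kit reads, was not given in the sources used here.

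ID3 was also higher with the ID2 label. It had 3676, 4607 and 3969 counts against 2405, 2469 and 2833, with no overlap, and differed by 0.49 (standard error 0.07, adjusted p = 2.01e-05). With the ID3 label it had 4565, 4538 and 4019 counts. ID1 had 4516, 4915 and 4026 counts against 3388, 3321 and 3735, a difference of 0.19 (standard error 0.06, adjusted p = 0.0386). That call was lost in 4 of 6 fits that left out 1 library, with adjusted p from 0.00105 to 0.201 over the 6, and without ID2-labelled library 3 the difference was 0.26.

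Of the 12740 genes, 2419 were called, which is 19%. Of them 1223 (9.60%) were higher and 1196 (9.39%) lower with the ID2 label. Most differences were small, and 1891 of the called genes (78.2%) differed by less than 1.5-fold. A difference of over 2-fold was called for 219 genes (1.72%), 97 of them higher (0.761%) and 122 lower (0.958%). The levels of the groups did not overlap for 4250 genes (33.4%), 2151 higher (16.9%) and 2099 lower (16.5%), and for 2352 of the called genes. Without ID2-labelled library 3 the test called 2230 genes (17.5%), 1098 higher (8.62%) and 1132 lower (8.89%). Both fits shared 1861 called genes, all with the same sign in both. The median log2 difference over all tested genes was -0.00091. In such bulk samples fewer cells of a kind and less RNA per cell cannot be told apart.

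Genes were ranked among those with a mean of 50 or more counts and no overlap, called with and without ID2-labelled library 3. The largest difference in the direction of the ID2 label was that of RAD50, which codes for a subunit of the MRE11 complex that binds broken DNA ends. It lies on chromosome 5 from 131891711 to 131982041. RAD50 had 6838, 6872 and 7630 counts in the ID2-labelled libraries and 828, 616 and 915 in the ID4-labelled libraries, and in the other 9 libraries it had 747 to 1027. The ID2-labelled libraries alone were high, and the difference was 3.01 (standard error 0.08, adjusted p = 1.91e-17). TH2LCRR, a long non-coding RNA gene on the opposite strand from 131966281 to 131999964, overlaps the end of RAD50 and had 105, 133 and 107 counts against 26, 17 and 17, a difference of 2.34. Whether counting used strand was not given in the sources used here, so reads of the overlapping pair cannot be told apart. Of 15 tested genes within 500 kb of RAD50, 4 were called and 1 by over 2-fold, which is TH2LCRR. KIF3A, 46.3 kb away, differed by 0.12 (adjusted p = 0.367).

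WISP2, a matricellular protein of the CCN family also known as CCN5, had 645, 646 and 767 counts against 132, 100 and 146, and 51 to 61 in the GFP libraries (2.27, adjusted p = 3.36e-13). SGCD, the delta subunit of the sarcoglycan complex of muscle membranes, had 462, 507 and 368 counts against 76, 85 and 91 (2.23, adjusted p = 9.89e-11). MMP3, the metalloproteinase stromelysin-1, had 897, 916 and 1163 counts against 238, 210 and 235 (1.95, adjusted p = 4.47e-12). No ID2-labelled count of these 3 genes came near the ID4-labelled ones. WISP2 had 188 to 230 counts with the ID1 label and 286 to 326 with the ID3 label. SGCD had 125 to 160 and 77 to 83, and 21 to 28 in the GFP libraries. With the ID4 label both genes also lay above GFP, by 1.15 and 1.88 on the log2 scale. For MMP3 the ID1-labelled libraries, at 781 to 919, and the ID3-labelled libraries, at 958 to 1220, reached the range of those labelled ID2, and GFP libraries had 114 to 158. LRRC15, a membrane protein of leucine-rich repeats found on mesenchymal cells, had 4684, 4908 and 4146 counts against 1304, 1138 and 1404 (1.66, adjusted p = 7.93e-13). It was the single gene among the 20 with the largest differences under this limit for which the ID2-labelled libraries lay above, and the ID4-labelled below, all others.

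GUCY1A2 (a subunit of soluble guanylate cyclase, 1.92), GALNT9 (an enzyme that starts mucin-type O-glycans, 1.89), ADA (adenosine deaminase, 1.73) and ANXA8 (an annexin that binds membrane phospholipid, 1.60) completed the 10 genes with the largest differences in this direction. GUCY1A2 had 124, 149 and 159 counts against 30, 33 and 38. ADA had 119, 136 and 146 counts against 37, 29 and 41. The ID2-labelled counts of GALNT9 were 212, 255 and 244 against 50, 53 and 66, and those of ANXA8 100, 117 and 111 against 21, 43 and 31. These are genes of low count, and ADA and GUCY1A2 had 3 to 24 counts in the GFP libraries. With the ID4 label GUCY1A2, GALNT9, ADA and ANXA8 also lay above GFP, by 2.57, 1.75, 0.83 and 1.47.

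In the direction of the ID4 label and under the same limit of 50 counts, ADAM7 stood next to ID4 itself. It codes for a membrane protein of the ADAM family that is known from the epididymis, and lies on chromosome 8 from 24298443 to 24384483. Its counts were 4, 0 and 2 with the ID2 label and 379, 320 and 388 with the ID4 label, a ratio of group sums of 204 (95% counting interval 93.6 to 558, counting error only). ID1-labelled libraries were as high, at 309, 374 and 372 counts, while GFP libraries were at 0 and ID3-labelled libraries at 0 or 1.

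BATF2, a leucine zipper partner of JUN proteins, had 7, 14 and 17 counts with the ID2 label and 150, 125 and 171 with the ID4 label (-3.71, adjusted p = 1.27e-09). POLD1, the catalytic subunit of DNA polymerase delta, lies on chromosome 19 from 50887461 to 50921275 and had 227, 219 and 284 counts against 1074, 928 and 1019 (-2.22, adjusted p = 2.20e-13). POR, the reductase that passes electrons to cytochrome P450 enzymes, had 270, 246 and 269 counts against 884, 756 and 915 (-1.87, adjusted p = 3.36e-13). For these 3 genes the ID4-labelled libraries were the high ones, above all 12 others. POLD1 had 229 to 310 counts in the GFP, ID1-labelled and ID3-labelled libraries, and POR had 193 to 282.

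B3GAT2, a glucuronyltransferase, showed the same pattern with 109, 103 and 108 counts against 341, 317 and 387 (-1.88). Its span overlaps that of SMAP1, an ARF GTPase-activating protein gene on the other strand that was looked up after the values were seen. SMAP1 had 305, 278 and 272 counts against 727, 607 and 753 (-1.46, adjusted p = 1.77e-10), and reads of this pair cannot be told apart either. SDHAF4, 78.2 kb from SMAP1, differed by 0.15 (adjusted p = 0.607). SP140, a nuclear body protein of leukocytes, was also highest in the ID4-labelled libraries, with 32, 27 and 68 counts against 269, 185 and 203 (-2.54, adjusted p = 1.62e-08). In SP140 the third ID2-labelled library was above the other two, and without it the difference was -3.05.

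RGS4, PREX1 and LOC283352 had the ID2-labelled libraries below all 12 others instead. RGS4, a GTPase-activating protein for G protein alpha subunits, had 26, 26 and 27 counts against 85, 94 and 86 (-1.92), and 130 to 147 in the GFP libraries. PREX1, an exchange factor for RAC, had 144, 173 and 143 counts against 485, 423 and 472 (-1.76), and 711 to 853 in the GFP libraries. In both genes the ID4-labelled counts lay between those of the ID2-labelled and GFP libraries. LOC283352, an uncharacterized locus with no position in the annotation used, had 12, 20 and 17 counts against 94, 70 and 108 (-2.63).

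**Figure D1:**
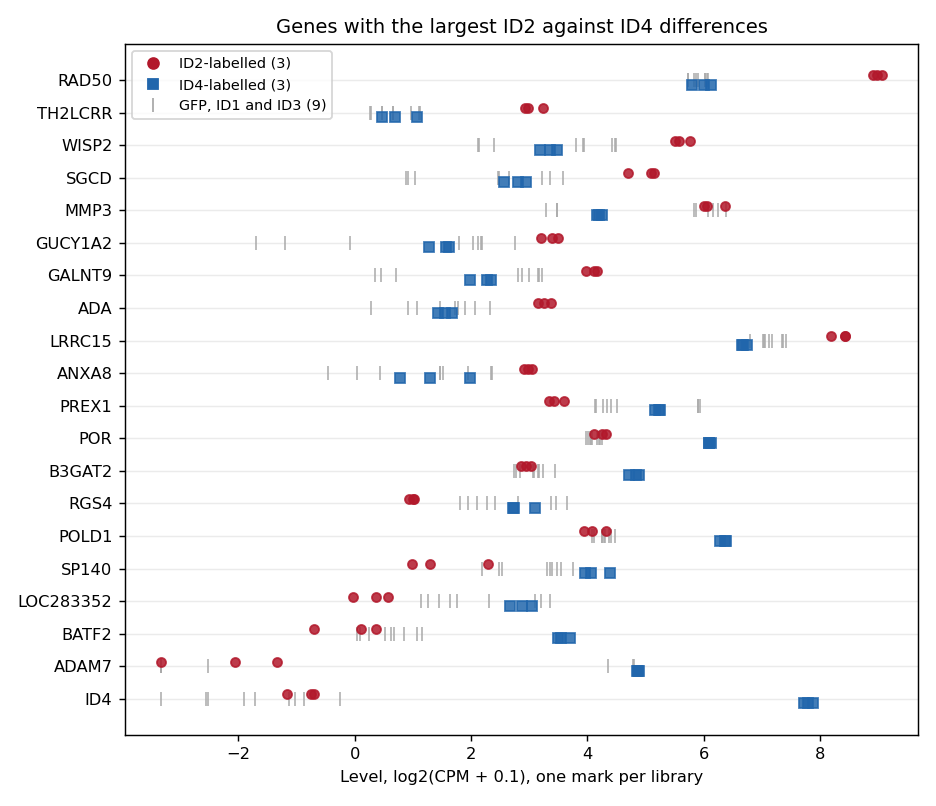
Level of the 10 genes most raised and the 10 most lowered with the ID2 label among those with a mean of 50 or more counts, as log2(CPM + 0.1) with one mark per library for the ID2-labelled (red circles), ID4-labelled (blue squares) and the other 9 libraries (grey ticks). The red and blue marks of a gene never overlap, RAD50 is high in red alone, and POLD1, POR, B3GAT2 and BATF2 are high in blue alone.

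A few genes were near 0 in every library of one group and well counted in the other. They were picked by these same counts, so the intervals below describe the size of a ratio and test nothing. GRM8, a metabotropic glutamate receptor, had 1, 0 and 0 counts with the ID2 label and 39, 32 and 47 with the ID4 label, a ratio of 133 (95% counting interval 23.4 to 5302). SPIB, an ETS factor of B cells, starts 0.9 kb after the end of POLD1 on the same strand and had 1, 0 and 0 counts against 29, 26 and 37, a ratio of 104 (95% counting interval 18.2 to 4144). LUZP4, a gene of the X chromosome known as a cancer-testis antigen, had 0 counts in all ID2-labelled libraries and 30, 24 and 40 with the ID4 label. With the floor of 3 counts over the group, the ID4-labelled level was at least 35.4-fold higher, and LUZP4 also had 12 to 14 counts in the ID1-labelled libraries. LINC01483, a long non-coding RNA, had 0 counts against 26, 24 and 25, so its ID4-labelled level was at least 28.2-fold higher. In the other direction MLANA, the melanocyte antigen MART-1, had 41, 56 and 61 counts with the ID2 label and 0, 0 and 2 with the ID4 label, a ratio of 70.02 (95% counting interval 19.1 to 583). MLANA had 0 to 8 counts in each of the 9 other libraries, so this low level was seen with the ID2 label alone.

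Gene lists were read by how many members were called in each direction, beside 9.60% higher and 9.39% lower over all tested genes. Genes of contraction and the actin cytoskeleton were mostly on the ID2 side where they were called. Of 38 tested members of a list of actin cytoskeleton and SRF target genes, 16 (42.1%) were higher and 1 (2.63%) lower, with a median log2 difference of 0.17, and without ID2-labelled library 3 the counts were 16 and 2. MYL9, a myosin light chain, had 85, 56 and 80 counts against 38, 29 and 32 (0.98, adjusted p = 0.00518). ACTA2, smooth muscle actin, had 179, 236 and 222 counts against 94, 96 and 133 (0.80, adjusted p = 0.000101). LMOD1 (0.76), CALD1 (0.74) and CNN1 (0.63), which code for leiomodin, caldesmon and calponin, rose too, as did the widely expressed ACTB (0.41), VCL (0.36) and ZYX (0.30). TPM2, a tropomyosin, was the member called lower (-0.33), and its call was lost without ID2-labelled library 1 or 2 or ID4-labelled library 1 or 3. Levels of SRF itself did not part the groups at this threshold (-0.20).

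Matrix genes rose more often than they fell. Of 44 tested genes for collagens, laminins and other matrix proteins, 17 were higher (38.6%) and 4 lower (9.09%), with a median of 0.17, and 20 and 5 without ID2-labelled library 3. COL3A1, a fibrillar collagen, had 77, 68 and 52 counts against 22, 17 and 23 (1.49, adjusted p = 4.91e-05). LUM, the keratan sulfate proteoglycan lumican, had 132, 132 and 155 counts against 60, 37 and 57 (1.27, adjusted p = 3.79e-05). DCN, decorin, had 23, 21 and 13 counts against 7, 2 and 6 (1.73, adjusted p = 0.00986), a call lost without ID4-labelled library 2 (adjusted p = 0.0530). FN1, fibronectin, had 181100, 198789 and 216895 counts against 129474, 97973 and 124156 (0.59, adjusted p = 6.26e-07). Of the 2 chains of type I collagen, COL1A2 rose by 0.46 (adjusted p = 0.000106) and COL1A1 had a difference of -0.02 (adjusted p = 0.829). COL13A1, a transmembrane collagen, went the other way with 184, 196 and 197 counts against 589, 489 and 570 (-1.69, adjusted p = 4.73e-13), as did LAMA1 (-0.82).

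TGFBI, a matrix protein induced by TGF-beta, had 83080, 92646 and 94135 counts against 39852, 32475 and 40812, so that every ID2-labelled library was above all others (1.08, adjusted p = 3.36e-13). TGFB2, the ligand, rose by 0.56, while the signal transducer SMAD3 fell by 0.35 on the log2 scale. In the list of 22 tested TGF-beta genes, 4 were higher and 1 lower, with a median of 0.09. Among 25 tested metalloproteinases and their inhibitors, 9 were higher and 3 lower, with a median of 0.24, and 9 and 2 without ID2-labelled library 3. The inhibitor TIMP4 was among the lowered ones (-0.72). Among 26 tested integrins, cadherins and other adhesion genes, 7 were higher and 4 lower. The collagen-binding subunit ITGA1 had 164, 204 and 179 counts against 80, 67 and 83 (1.07), whereas ITGA2, another collagen-binding subunit, had 81, 95 and 82 against 173, 155 and 200 (-1.20), and the laminin-binding subunit ITGA6 61, 67 and 65 against 165, 128 and 154 (-1.38). Adhesion genes thus changed in both directions.

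Genes of protein folding in the endoplasmic reticulum were called in 1 direction with a single exception. When unfolded protein builds up in that compartment, the factors ATF6 and XBP1 raise chaperone genes through promoter sequences called ERSE and ERSE-II. Of 27 tested genes of the unfolded protein response, 10 (37.04%) were higher and 1 (3.70%) lower, with a median of 0.17, and 11 and 1 without ID2-labelled library 3. CREB3L1, a membrane-bound factor related to ATF6, had 3468, 3890 and 4016 counts against 2148, 1822 and 2175 (0.71, adjusted p = 5.62e-09). CRELD2, an ER-resident disulfide isomerase, had 868, 1001 and 1035 counts against 617, 518 and 638 (0.54, adjusted p = 4.01e-05). Both groups were far apart in these genes relative to their spread. SDF2L1 (0.41), an ER chaperone component, HSP90B1 (0.37), the ER form of HSP90, and the calcium-binding chaperone CALR (0.35) rose too. SEC61B, a subunit of the protein channel, was called lower (-0.26). HSPA5, the chaperone BiP and a standard readout of the response, had a difference of 0.06 that was not called.

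The promoters of 4 of the raised chaperone genes are shown because they hold the known response sequences. Each is the 250 bases before the gene's start in RefSeq on the GRCh38.p14 build (the counts themselves were made on GRCh37), read 5′ to 3′ on the strand of the gene, with matches in capitals. ERSE was searched as CCAAT and CCACG with 9 bases between them and ERSE-II as ATTGG and CCACG with 1 base between them, on both strands. CRELD2 lies at chr22:49918384-49918633, HSP90B1 at chr12:103930160-103930409, CALR at chr19:12938359-12938608 and SDF2L1 at chr22:21642052-21642301, all on the plus strand.
CRELD2: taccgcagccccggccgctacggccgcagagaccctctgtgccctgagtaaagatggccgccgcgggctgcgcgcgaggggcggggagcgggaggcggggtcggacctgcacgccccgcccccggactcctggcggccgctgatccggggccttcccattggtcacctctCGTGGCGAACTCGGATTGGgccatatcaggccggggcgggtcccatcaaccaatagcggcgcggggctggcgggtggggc
HSP90B1: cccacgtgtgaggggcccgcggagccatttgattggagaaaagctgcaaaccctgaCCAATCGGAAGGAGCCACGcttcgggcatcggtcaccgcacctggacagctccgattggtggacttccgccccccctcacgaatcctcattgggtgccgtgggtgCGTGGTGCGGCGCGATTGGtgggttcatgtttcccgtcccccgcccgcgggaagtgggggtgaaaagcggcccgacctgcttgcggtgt
CALR: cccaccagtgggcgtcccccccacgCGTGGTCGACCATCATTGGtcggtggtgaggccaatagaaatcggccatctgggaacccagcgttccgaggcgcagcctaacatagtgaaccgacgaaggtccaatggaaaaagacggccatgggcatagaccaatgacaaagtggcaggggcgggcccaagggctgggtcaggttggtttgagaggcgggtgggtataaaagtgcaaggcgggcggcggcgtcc
SDF2L1: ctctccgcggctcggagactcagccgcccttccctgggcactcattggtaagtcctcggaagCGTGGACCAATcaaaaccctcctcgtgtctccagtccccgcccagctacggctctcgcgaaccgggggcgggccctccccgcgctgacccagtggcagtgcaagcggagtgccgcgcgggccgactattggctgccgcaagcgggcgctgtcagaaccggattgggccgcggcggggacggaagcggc
HSP90B1 holds 2 ERSE matches, on opposite strands, CRELD2 and CALR hold 1 each on the minus strand, and SDF2L1 holds an ERSE-II match on the minus strand. In the same window, ERSE was found in 26 of 35116 RefSeq promoters (0.0740%) and ERSE-II in 18 (0.0513%). By gene, ERSE was found for 25 of 27305 (0.0916%) and ERSE-II for 18 (0.0659%). Of 26 list genes with a promoter in the table, ERSE was found for 7 genes (CALR, CANX, CRELD2, HSP90B1, HSPA5, PDIA6 and XBP1) and ERSE-II for 3 (HERPUD1, HYOU1 and SDF2L1). Of these 10 genes 6 were called higher and 0 lower, with a median of 0.27, and of the 15 tested list genes whose searched promoters held no match 4 were higher and 1 lower, with a median of 0.14. The list holds genes known for this response, so its high share of matches is not a result of these data. List genes with and without a match were not tested against each other. A match is a description of the letters and not a bound site.

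Lysosomal genes were mostly on the ID2 side where they were called. Of 38 tested lysosome and autophagy genes, 17 (44.7%) were higher and 2 (5.26%) lower, with a median of 0.18, and 15 and 3 without ID2-labelled library 3, or 11 and 2 with library 3 of both groups left out. CTSS and CTSK, which code for cathepsin proteases, rose by 0.64 and 0.46. CTSS had 167, 143 and 135 counts against 87, 66 and 101. GPNMB, a glycoprotein of lysosomes and melanosomes, had 357, 353 and 429 counts against 231, 189 and 230 (0.64, adjusted p = 4.62e-05). MITF, a factor that drives melanocyte and some lysosomal genes, had the opposite direction, with 130, 154 and 142 counts against 275, 191 and 238 (-0.90, adjusted p = 3.47e-06). It was the ID4-labelled libraries that were above all others for MITF.

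Glycolysis and hypoxia genes showed smaller steps. Of 35 tested, 13 (37.1%) were higher and 2 (5.71%) lower, with a median of 0.11. HK2, hexokinase 2, had 2776, 3183 and 2405 counts against 1702, 1542 and 1756 (0.57, adjusted p = 3.34e-05), and P4HA2, a collagen prolyl hydroxylase, rose by 0.58. GPI, GAPDH, ALDOA, TPI1 and PGK1, enzymes of glycolysis, rose by 0.16 to 0.30. The hypoxia targets ANGPTL4, with 313, 371 and 383 counts against 739, 606 and 642 (-1.07, adjusted p = 1.98e-08), and VEGFA (-0.28) fell. Here the third libraries moved the counts. Without ID2-labelled library 3 the counts were 8 higher and 3 lower, and with ID4-labelled library 3 left out as well they were 6 and 3.

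Genes that ERK signaling induces were called in the ID4 direction alone. These are early targets and feedback inhibitors, so their mRNA is often read as a gauge of the pathway. Of 21 tested, 0 were higher and 9 (42.9%) lower, with a median of -0.24, and 0 and 8 without ID2-labelled library 3. DUSP6, the phosphatase that switches off ERK, had 398, 421 and 328 counts with the ID2 label and 532, 437 and 514 with the ID4 label (-0.54, adjusted p = 0.000333). DUSP4, a related phosphatase, had 82, 89 and 72 counts against 135, 127 and 153 (-0.94, adjusted p = 8.14e-05). SPRY2 (-0.49), ETV5 (-0.35) and PHLDA1 (-0.50) fell as well. EPHA2, an ephrin receptor, had 301, 358 and 145 counts against 397, 379 and 345, and its call (-0.66, adjusted p = 0.0388) was lost without ID2-labelled library 3 (adjusted p = 0.122), without ID4-labelled library 1 (0.0984) or 2 (0.138). CCND1, cyclin D1, differed by -0.02.

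AP-1 and immediate early genes had 1 member higher and 5 lower of 24 tested, and the same counts without ID2-labelled library 3. Their median was -0.23, and 0.003 without that library. JUN had 6242, 6745 and 6481 counts against 7993, 6814 and 8169, with no overlap (-0.41, adjusted p = 1.71e-07). BATF3 fell by 0.70 on the log2 scale. JUNB was the exception with 2132, 1935 and 1713 counts against 1094, 1118 and 1056 (0.64, adjusted p = 2.15e-05), so these 2 JUN family genes moved in opposite directions. KLF4, a zinc finger factor of low count, had 14, 12 and 3 counts against 32, 17 and 27 (-1.54, adjusted p = 0.0116), and its call was lost without ID4-labelled library 1 (adjusted p = 0.0615).

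**Figure D2:**
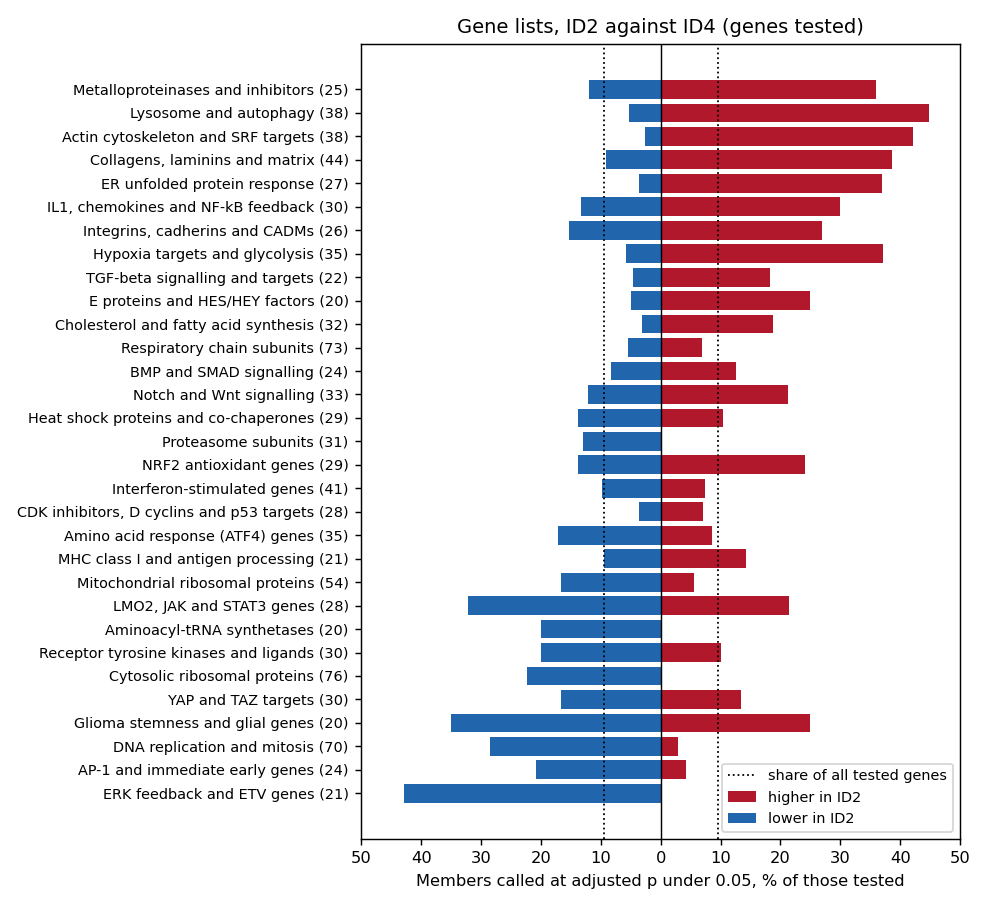
Share of tested members called at adjusted p under 0.05 in each gene list with 20 or more tested genes, with members higher with the ID2 label to the right (red) and lower to the left (blue), ordered by the median log2 difference. Dotted lines mark the shares over all 12740 genes, 9.60% and 9.39%, and the ERK list has no bar on the right.

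Replication and ribosomal protein genes that were called were mostly lower with the ID2 label, though most members were not called. Of 70 tested genes of DNA replication and mitosis, 2 (2.86%) were higher and 20 (28.6%) lower, with a median of -0.14, and 2 and 19 without ID2-labelled library 3. POLD1 was the single large difference, and the others were within 0.53 of 0 on the log2 scale. CDC25A, the phosphatase that starts S phase, had 292, 288 and 343 counts against 400, 361 and 420 (-0.53, adjusted p = 0.000428). BUB1B, a spindle checkpoint kinase, had 272, 278 and 263 counts against 303, 332 and 347 (-0.45, adjusted p = 0.00135). The number of members called fell from 22 to 11 without ID2-labelled library 1, to 14 without ID4-labelled library 1 and to 12 without ID4-labelled library 3. MKI67 (-0.04) and PCNA (-0.02), common markers of dividing cells, differed little.

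Of 76 cytosolic ribosomal protein genes, 0 were higher and 17 (22.4%) lower, with a median of -0.08. RPS12 had 36531, 37364 and 39834 counts against 46267, 39222 and 47041 (-0.39, adjusted p = 1.22e-06). Without ID2-labelled library 3 the number lower was 23, and without ID2-labelled library 2, ID4-labelled library 1 or ID4-labelled library 3 the number called was 11, 10 and 11. Of 54 mitochondrial ribosomal genes 3 were higher and 9 lower. Of 20 aminoacyl-tRNA synthetases 0 were higher and 4 (20%) lower, which fell to 2 called without ID2-labelled library 1 or 2 or ID4-labelled library 1 or 3. Among those called, IARS lies on chromosome 9 and KARS and AARS lie on chromosome 16. They are in stretches described below where many genes were lower, so the list cannot be told apart from its positions. Of 31 proteasome subunits 0 were higher and 4 lower, or 2 called without ID4-labelled library 1 or 3.

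The study asks about LMO2 and STAT3 signaling, and 30 genes of JAK kinases, STAT factors and their targets were read as a list with LMO2. Of 28 tested, 6 (21.4%) were higher and 9 (32.1%) lower, with a median of -0.05, and 9 in all were called without ID4-labelled library 1. LMO2 itself was counted 20, 12 and 3 times against 43, 19 and 23 (-1.44, adjusted p = 0.0173), and the call was lost without ID2-labelled library 3 (adjusted p = 0.0658) and without ID4-labelled library 1 (0.144). SOCS3, the feedback inhibitor of JAK kinases, had 499, 530 and 180 counts against 793, 710 and 587 (-0.97, adjusted p = 0.0147). Without ID2-labelled library 3, the low one, the value was -0.61 (adjusted p = 0.0259), and the call was lost without ID4-labelled library 1 (adjusted p = 0.0580) or 2 (0.0608). SOCS3 was among the 64 genes low in ID2-labelled library 3 that are described below. In CPM, GFP library 2, ID1-labelled library 1, ID3-labelled library 2 and ID4-labelled library 3 were also the lowest of their groups for it. STAT5B had 211, 167 and 111 counts against 296, 254 and 263 (-0.90, adjusted p = 0.000730).

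Genes linked to glioma stem-like and glial states went both ways. Of 20 tested, 5 were higher and 7 lower, with a median of -0.13, and the same counts were found without ID2-labelled library 3. SOX9, a factor of glial progenitors, had 60, 52 and 39 counts against 131, 120 and 134 (-1.52, adjusted p = 2.77e-07). PDGFRA, a receptor of glial progenitors, had 17, 12 and 11 counts against 38, 31 and 41 (-1.62, adjusted p = 0.00121). Among the raised members, JAG1, a Notch ligand, had 139, 150 and 131 counts against 65, 57 and 75 (0.92, adjusted p = 3.79e-05), and GLUL, glutamine synthetase, rose by 0.93. CHI3L1, a secreted protein of the mesenchymal glioma state, had 776, 881 and 816 counts against 526, 481 and 517 (0.52). In the GFP libraries SOX9 was at 21.8 CPM, above 10.3 with the ID4 label and 3.60 with the ID2 label.

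Notch and Wnt genes had 7 members higher and 4 lower of 33 tested. The glycosyltransferase LFNG, which modifies Notch, had 399, 371 and 393 counts against 172, 179 and 202 (0.90). The 2 non-canonical ligands parted, since WNT5B had 1214, 1204 and 1013 counts against 607, 566 and 623 (0.76, adjusted p = 1.06e-06) and WNT5A 648, 731 and 612 against 863, 817 and 930 (-0.57, adjusted p = 4.95e-06). In the list of E proteins and HES/HEY factors, 5 of 20 (25%) were higher and 1 (5%) lower. Only the E proteins of this list, such as TCF4, were named above as partners of ID proteins. HEY1 rose by 0.74, TWIST1 by 0.52 and TCF4 by 0.26, and TCF4 had 1538, 1547 and 1696 counts against 1282, 1004 and 1268. Among BMP and SMAD genes 3 of 24 (12.5%) were higher and 2 (8.33%) lower, close to the shares over all tested genes. The BMP antagonist GREM1 was one of those higher, by 0.40.

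Cytokine genes were among those with large differences. Of 30 tested genes of IL1, chemokines and NF-kB feedback, 9 were higher and 4 (13.3%) lower, with a median of 0.17. The hyaluronan-binding protein TNFAIP6 had 22, 23 and 24 counts against 3, 5 and 7 (2.002, adjusted p = 0.000288), and the chemokine CCL26 had 48, 53 and 49 against 12, 16 and 14 (1.65, adjusted p = 3.29e-05). The growth factors of myeloid cells went the other way, with CSF1 at 1371, 1569 and 1375 counts against 2029, 1609 and 1876 (-0.53) and CSF3 at -0.60. TNFAIP2 had 312, 378 and 300 counts against 672, 582 and 642 (-1.11, adjusted p = 5.74e-10). Interferon-stimulated genes, by contrast, had 3 higher and 4 lower of 41 tested (17.1% called), close to the share over all genes, and 3 called without ID2-labelled library 1 or ID4-labelled library 3.

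Metallothioneins, small proteins that bind zinc and copper, split within the family. MT1M had 1109, 1063 and 1289 counts with the ID2 label against 513, 376 and 495 (1.15, adjusted p = 8.67e-10), and MT1F (0.70) and MT1X (0.52) rose as well. MT2A had 22048, 23270 and 25201 counts against 33859, 27962 and 33366 (-0.61, adjusted p = 2.35e-09), and MT1L (-1.06) and MT1E (-0.24) fell. The genes are near-identical in sequence, so how reads were split among them is uncertain. Of 29 tested NRF2 antioxidant genes 7 were higher and 4 lower, and of 12 aldehyde dehydrogenases 4 were higher and 2 lower, with ALDH4A1 at 0.71 and ALDH1A3 at -0.60.

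**Figure D3:**
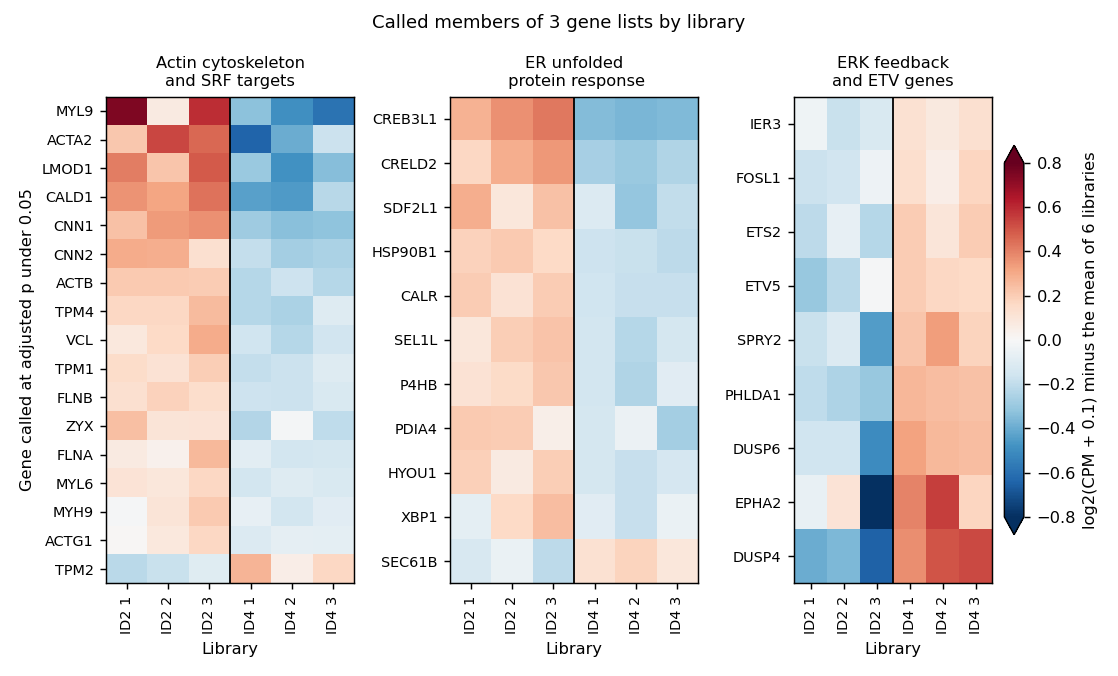
Called members of the actin and SRF, unfolded protein response and ERK feedback lists by library, coloured by log2(CPM + 0.1) minus the gene's mean over the 6 libraries (red higher, blue lower, colours end at 0.8 in either direction). The 3 ID2-labelled columns are redder in the first 2 panels except for TPM2, SEC61B and XBP1 in library 1, and bluer in the third, where EPHA2 is lower in ID2 library 3 than in libraries 1 and 2.

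In the remaining lists the counts were mixed or small. Called higher and lower were 6 and 1 of 32 cholesterol and fatty acid synthesis genes, 5 and 4 of 73 respiratory chain subunits, 3 and 6 of 35 amino acid response genes, and 4 and 5 of 30 YAP and TAZ targets. They were 3 and 1 of 15 plasminogen activators and serpins, 2 and 1 of 28 CDK inhibitors, D cyclins and p53 targets, 3 and 2 of 21 MHC class I genes, and 3 and 4 of 29 heat shock proteins. They were 3 and 6 of 30 receptor tyrosine kinases and ligands, 0 and 4 of 13 IGF binding proteins and IGF genes, and 0 and 5 of 17 histones. In the amino acid response list PHGDH, the first enzyme of serine synthesis, had 267, 303 and 342 counts against 453, 389 and 443 (-0.67, adjusted p = 1.62e-05), while PYCR1, a proline synthesis enzyme, rose by 0.44. Leaving out ID4-labelled library 1 or 3 took the called respiratory chain genes from 9 to 3 and 4, and leaving out ID4-labelled library 2 or 3 took the cholesterol genes from 7 to 4 each. Leaving out ID4-labelled library 1 took the called receptor kinase genes from 9 to 5 and the IGF genes from 4 to 2, and leaving out ID4-labelled library 2 took the MHC genes from 5 to 3.

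Markers checked the cell type. All 8 genes fixed for a glioma line of this kind (among them VIM, CD44, TNC, FN1, NES, CHI3L1 and IGFBP7) passed the count limit, and 4 of them were called higher and 1, CD44, lower (-0.13, a call lost in 5 of 6 fits that left out 1 library). Their summed level was 20500 to 21380 CPM with the ID2 label and 14930 to 16120 with the ID4 label, most of it FN1. GFAP of astrocytes had 0 to 4 counts, AQP4 and the neuron genes RBFOX3 and SLC17A7 had 0, and PTPRC of blood cells had 0 to 5. Other genes of the neuron list were counted, with 191 to 310 counts of GAD1, 146 to 231 of MAP2 and 22 to 43 of SYT1, and CD68 of the blood list had 619 to 1038. Of the 9 astrocyte and oligodendrocyte, 8 neuron, 8 blood, 6 endothelial and 7 epithelial markers, 1, 4, 1, 1 and 0 passed the count limit. SNAP25, a synaptic vesicle fusion protein in the neuron list, was called, with 445, 434 and 303 counts against 170, 141 and 126 (1.26, adjusted p = 3.67e-05), and CD68, a lysosomal protein, by 0.26. The call of CD68 was lost without ID4-labelled library 2. The summed level of the neuron list was 61.3 to 68.8 CPM against 45.2 to 50.9, that of the blood list 71.4 to 75.2 against 55.8 to 66.9, and that of the astrocyte and oligodendrocyte list 1.99 to 2.60 against 1.59 to 2.70. The endothelial list summed to 1.03 to 1.47 against 1.17 to 1.97 CPM and the epithelial list to 0.704 to 1.40 against 0.808 to 1.16.

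Positions of the called genes were not even over the genome. Of 496 tested genes on chromosome 9, 17 were higher and 132 (26.6%) lower with the ID2 label, with a median log2 difference of -0.15, and of 414 on chromosome 15, 18 were higher and 76 (18.4%) lower, with a median of -0.12. On chromosome 9 the shift lay beyond 70 Mb, where 10 genes were higher and 119 lower of 366 (median -0.19), and not before it, where 7 were higher and 13 lower of 130 (median -0.02). On chromosome 16 it lay beyond 50 Mb, with 10 higher and 97 lower of 251 (median -0.21), while before 40 Mb 34 were higher and 4 lower of 310 (median 0.06). The 3 chromosomes held 11.7% of the tested genes and 26.4% of the genes called lower. On chromosome 15 and in the late stretches of chromosomes 9 and 16, every ID2-labelled library lay below every ID4-labelled one in the median deviation from the gene means. Beyond 70 Mb on chromosome 9 the 6 library medians were -0.0910, -0.0863 and -0.0667 against 0.0837, 0.0979 and 0.0891.

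Smaller stretches went either way. On chromosome 1 from 110 to 120 Mb, 1 gene was higher and 24 lower of 62 (median -0.23), and on chromosome 12 from 110 to 120 Mb, 0 were higher and 16 lower of 62 (median -0.17). On chromosome 17 from 10 to 20 Mb, 15 were higher and 1 lower of 60 (median 0.18), and on chromosome 7 from 140 to 160 Mb, 18 were higher and 2 lower of 68 (median 0.17). Without ID2-labelled library 3 the medians of these 4 stretches were -0.22, -0.23, 0.15 and 0.17, and those of chromosomes 9 and 15 were -0.15 and -0.11. Chromosome 19 was on the ID2 side with 109 higher and 27 lower of 758 (median 0.09), and there the third library was the highest. In its first 10 Mb the deviations of the ID2-labelled libraries were 0.0595, -0.0028 and 0.159. Of 237 windows of 10 Mb with 20 or more tested genes, 17 had a median below -0.15 and 3 above 0.15, and 12 of the 17 were on chromosomes 9, 15 and 16.

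Levels in the GFP libraries were set beside these shifts. The comparisons with GFP share its 3 libraries, and their medians are given side by side. Beyond 70 Mb on chromosome 9 the median was -0.19 for the ID2 label and 0.00 for the ID4 label, and beyond 50 Mb on chromosome 16 it was -0.18 and 0.04. On chromosome 15 both lay above GFP, at 0.25 and 0.37, and so did the ID1 and ID3 labels, at 0.34 and 0.33. Metallothionein genes such as MT2A, at 56642496 to 56643409 on chromosome 16, lie in the stretch beyond 50 Mb. The aminoacyl-tRNA synthetase genes KARS and AARS lie there too, and IARS lies beyond 70 Mb on chromosome 9. The part of these regional shifts in the difference of any single gene was not tested.

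**Figure D4:**
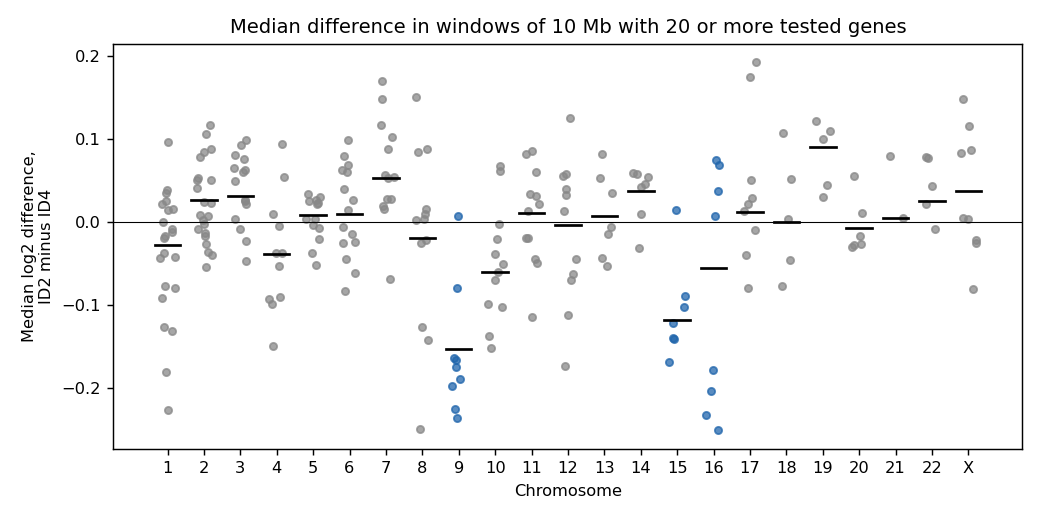
Median log2 difference of tested genes, ID2-labelled minus ID4-labelled, in windows of 10 Mb with 20 or more tested genes (points) and over each chromosome (bars). Points of chromosomes 9, 15 and 16 (blue) reach below -0.15, while most windows of other chromosomes lie between -0.15 and 0.15.

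The ID2-labelled libraries lay outside the range of all 12 other libraries more often than the ID4-labelled ones. They were above all others for 637 genes (5%) and below for 528 (4.14%), against 203 (1.59%) and 131 (1.03%) for the ID4 label. Of the 2419 called genes, 924 (38.2%) had the ID2-labelled libraries outside and 237 (9.80%) the ID4-labelled ones, and the difference between these shares was not tested. In the order of the 3 group means of called genes, ID4-labelled lay between GFP and ID2-labelled for 1206 (49.9%), GFP lay between the others for 972 (40.2%) and ID2-labelled for 239 (9.88%). Over all tested genes the same shares were 46.0%, 26% and 28.03%. Called genes were selected for the distance between the 2 compared groups. That selection by itself makes GFP more likely to lie between them, so the 2 sets of shares are not like for like.

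The distance of ID2-labelled library 3 was spread over many genes. The median absolute log2 difference over the 9129 genes was 0.0837 between ID2-labelled libraries 1 and 2, and 0.136 and 0.140 with library 3. At the extremes, genes were low in it rather than high. Among genes with a mean of 100 or more counts, 64 were at less than 1/2 of both other ID2-labelled libraries there, and 1 was at over 2 times both. In libraries 1 and 2 the corresponding numbers of low genes were 0 and 1. CRTC2, a coactivator of CREB, had 273, 220 and 14 counts in the ID2-labelled libraries and 237, 229 and 76 in the ID4-labelled ones. XPOT, the export receptor of tRNA, had 450, 450 and 39 against 536, 528 and 131. SMN1, a factor of snRNP assembly with a near-identical copy in the genome, had 2608, 2752 and 412 against 2645, 2696 and 1569. In both groups library 3 was the low one.

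These 64 genes also had a common low library in each other group. ID4-labelled library 3 was the lowest of its group for 60 of them, GFP library 2 for 51, ID1-labelled library 1 for 60 and ID3-labelled library 2 for 55. Of the 64, 6 were called between ID2 and ID4 labels, all lower with the ID2 label, and 4 were called without ID2-labelled library 3. The stress chaperone HSPB8 was one of the low genes, at 515, 599 and 76 counts against 894, 862 and 288, and its difference of -0.98 was not called (adjusted p = 0.175). What these libraries share was not tested.

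**Figure D5:**
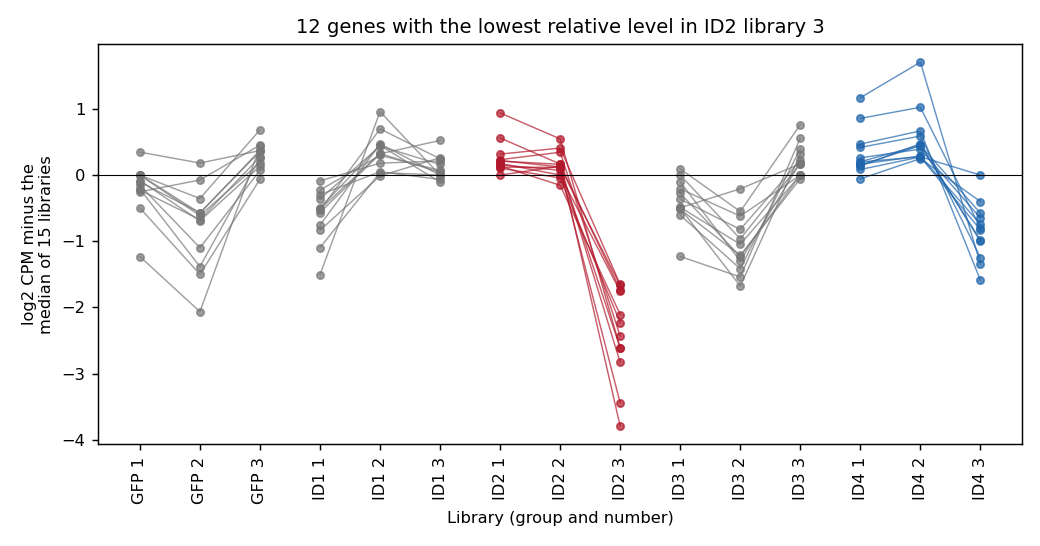
Level of the 12 genes with the lowest relative level in ID2-labelled library 3, as log2 CPM minus the gene's median over all 15 libraries, with lines joining the libraries of a group for 1 gene (ID2-labelled red, ID4-labelled blue, others grey). All 12 drop in ID2 library 3, and most are also at their group's lowest in ID4 library 3, GFP library 2, ID1 library 1 and ID3 library 2.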

How the data were processed

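RNA from U87MG cells was made into QuantSeq 3′ libraries and processed by the company eBiogen on hg19, which is GRCh37. Bowtie2 and BWA are named in the submitters' processing notes, with no version or role, and the counting tool, its annotation and its use of strand are not given in the sources used here. The authors deposited a raw count for each gene and library and, beside it, a log2 value that they normalized between libraries. The deposited counts were analysed. The log2 values were not used in any test. Both kinds have 15 columns, and no column of another sample was found.

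The model was fitted in edgeR 4.0.16 (R 4.3.3) to all 15 libraries, with a mean for each group, TMM factors of 0.983 to 1.02 and a common dispersion of 0.00462, and ID2-labelled minus ID4-labelled was tested by quasi-likelihood. Benjamini-Hochberg adjustment covered the 12740 genes, with a threshold of 0.05. A single value in 3 libraries against 3 cannot go below p = 0.10 in an exact permutation test. Alternatives were DESeq2 1.42.0, limma 3.58.1 with trend and a prior count of 2, RLE factors, other count limits, the 6 compared libraries alone, a replicate block and leaving out each library. On simulated counts of 12740 genes edgeR found 97 of 100 genes changed by 1 on the log2 scale and 62 of 100 changed by 0.4, with 9 false calls. Every simulated gene had the common dispersion, and no simulated library stood apart as ID2-labelled library 3 does. The simulation thus checks the fit but does not give the rate of false calls in these data.

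The comparison, the 43 gene lists and the rule for named genes were chosen with earlier results of these data known. The rule takes the 4 ID genes, the 10 largest differences in each direction (called with and without ID2-labelled library 3, no overlap, mean of 50 or more counts), up to 5 genes in each direction with at most 3 counts in every library of 1 group and at least 20 in the other, and up to 3 called members of each list in each direction. Other genes named, among them further list members and neighbours by position, were picked after their values were seen. One list member is not reported here by name. Gene positions on GRCh37 are those of GENCODE, matched by symbol for 22331 of 25737 entries and by an older symbol for 1413. Promoters came from RefSeq. Libraries of a group differed by more than counting noise, with a mean chi-square of 2.55 to 12.3 per gene where noise alone gives 1. Plots used Python 3.11.15 and matplotlib 3.10.9.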

Additional observations from a re-analysis of the deposited data

How the results depend on the processing

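The number of genes called was 2419 and lay between 1706 and 2230 with 1 library left out, and it was 1752 with the 6 compared libraries alone, 2254 with DESeq2, 2400 with RLE factors, 2407 with limma, 2408 with no filter and 2298 with a mean of 50 or more counts. The number called over 2-fold was 219, 203 to 225 with 1 library left out, and 92 (48 higher and 44 lower) with a mean of 50 or more counts, a limit under which 10537 genes were tested. Chosen after the data were seen, the compared libraries alone without ID2-labelled library 3 gave 2486 and 222, and leaving out library 3 of both groups gave 1773 and 199. The difference of ID1 was 0.14 to 0.26 with 1 library left out and 0.18 with the 6 libraries alone (adjusted p = 0.141). The median of chromosome 9 was -0.14 with no filter. Signs changed for 2 genes of low count that were not called, MBP (-0.799 to 0.094 with 1 library left out, 0.094 without ID4-labelled library 1) and KDR (-0.517 to 0.238 with 1 left out, 0.081 without ID2-labelled library 1, 0.238 without ID4-labelled library 3, 0.264 without library 3 of both groups), where the cause was not tested. Over 191 named genes and 15 alternatives, 2600 of 2843 values kept direction and side of the threshold and 239 kept the direction only. Most of these genes were named because the main fit called them, so part of this agreement was built in. Of all called genes, 76.9% were called also without ID2-labelled library 3. With a replicate block 2209 genes were called, 214 over 2-fold. Same-numbered libraries had correlated deviations of 0.05, 0.16 and 0.31, not all above 0.1, and not every library matched its own number best, so the numbers do not show pairs. Depth limits genes near the floor of 3 counts, and p-values of the 3 libraries a group measure the spread between libraries only.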
